A study of Mus musculus with 22 samples.

Results

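Ms4a genes encode small proteins that cross the cell membrane several times, and 7 of them were followed here through 22 RNA libraries of primary mouse microglia: Ms4a4a, Ms4a4c, Ms4a6b, Ms4a6c, Ms4a6d, Ms4a7 and Ms4a14. They are 7 of the 15725 gene symbols in the expression table and 7 of the 14 symbols there that begin with Ms4a. All 7 names were found, and all 7 passed the filter on low values. The names were selected on earlier results of these same libraries, that is, on their FPKM levels and on differences between the groups. Which comparison put each name on the list is not recorded, so every comparison is treated as used, and the levels, differences and calls of the 7 genes are given as a description without p-values.

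MS4A proteins sit at the cell surface and on internal membranes, where members of the family act as partners of receptors. CD20 (Ms4a1) of B cells and the beta chain of the high-affinity IgE receptor (Ms4a2) of mast cells are its classic members, and the genes followed here belong mainly to the branch found in monocytes and macrophages. In humans, MS4A4A and MS4A6A lie in a locus associated with soluble TREM2 and with Alzheimer's disease risk. MS4A4A is a macrophage protein that associates with the fungal receptor dectin-1 (Clec7a), MS4A6D is a partner of VSIG4 in mouse macrophages, and Ms4a7 is used in mice as a marker that separates border macrophages from resident microglia of the healthy brain.

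Microglia were shaken off mixed glial cultures grown from newborn C57BL/6 mouse cortex, and every culture received 100 ng/ml lipopolysaccharide (LPS), a bacterial activator of macrophages, for 24 h. The groups were LPS with 50 nM CLA (LPS+CLA, n = 6), LPS with 10 nM bafilomycin A1, an inhibitor of the vacuolar proton pump (LPS+Baf A1, n = 5), LPS after 48 h of transfection with 50 nM siRNA against Atg5, a gene needed to form autophagosomes (LPS+siAtg5, n = 5), LPS+dNC, which the design text sets against the Atg5 siRNA (n = 3), and LPS alone (n = 3). The labels spell out neither CLA nor dNC and give no dose for dNC. All 5 groups had LPS, so none of the values shows what LPS itself did to these genes. Nothing in the labels ties replicates to different cultures, and p-values therefore cover only the differences among these libraries, which could be technical.

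Values are FPKM (fragments per kilobase of gene, scaled to the mapped fragments of the library), which are scaled to gene length and so can be compared between genes. The 22 columns summed to 469750 to 575125 FPKM. Read counts were not used here, so the depth behind each value is unknown. Atg5 averaged 13.1 ± 0.37 FPKM in LPS+siAtg5 libraries and 22.3 ± 1.67 FPKM in LPS+dNC libraries (SD), a log2 difference of -0.73 (SE 0.05, limma adjusted p = 4.05e-12). Macrophage genes were abundant: the 20 pan-macrophage genes summed to 11829 to 15738 FPKM in the libraries of all groups. In LPS+dNC libraries, however, the defining microglial gene Cx3cr1 averaged 0.18 FPKM and Csf1r 153 FPKM, against 7.79 and 869 FPKM in LPS libraries. Other genes of this list went the other way, such as Fcer1g at 5103 FPKM in LPS+dNC and 2334 FPKM in LPS libraries. Of the 20 genes, 9 were higher and 9 lower in LPS+dNC against LPS at a limma adjusted p under 0.05 (median log2 difference 0.09). Of all genes tested, 29% were higher and 28.1% lower in the same comparison (median 0.002). Siglech was at 0 in every LPS+CLA, LPS+Baf A1 and LPS+dNC library, and P2ry12 did not exceed 8.98 FPKM in any library. Astrocyte markers summed to 509.8 to 600.9 FPKM in LPS+siAtg5 libraries and to 5.3 to 29.7 FPKM in the other libraries. S100a8, a gene of neutrophils and activated myeloid cells, ranged from 129 to 632 FPKM in LPS+dNC libraries and did not exceed 33.6 FPKM elsewhere. LPS+CLA replicate 2, LPS+dNC replicate 1 and LPS replicate 3 were taken as lying apart from their groups on earlier results of these libraries. The lowest correlation with another library of the group does not single out LPS+dNC replicate 1, as it was 0.9845 for replicates 1 and 3 alike. Where leaving all 3 out moved a difference of the 7 genes by over 0.1 on the log2 scale, the value without them is given too.

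In the mouse the Ms4a genes lie side by side on chromosome 19. On GRCm38 (GENCODE annotation), 6 of the 7 genes lie in this order: Ms4a14 (11301249 to 11314454) and Ms4a7 (11321039 to 11336146) on the minus strand, then Ms4a4a (11375523 to 11392790), Ms4a4c (11404770 to 11427246), Ms4a6c (11469366 to 11482192) and Ms4a6b (11516512 to 11531256) on the plus strand. Ms4a6d (11586604 to 11604849) follows on the minus strand. The RefSeq order holds 21 Ms4a genes here, with Ms4a4b between Ms4a4c and Ms4a6c and the predicted gene Gm8369 between Ms4a6c and Ms4a6b.

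Promoter windows of 300 bases, from 250 before to 50 after the start site, were taken from RefSeq (GRCm38.p6), which had an entry for 6 of the 7 genes, all but Ms4a6d. The first pair is shown because its members share the longest stretch. Ms4a6c (chr19:11469118-11469417, plus strand) and Ms4a6b (chr19:11518309-11518608, plus strand) are printed 5′ to 3′, with capitals for GAAAGTGAA and for a run of 48 bases that is identical in both.
Ms4a6c: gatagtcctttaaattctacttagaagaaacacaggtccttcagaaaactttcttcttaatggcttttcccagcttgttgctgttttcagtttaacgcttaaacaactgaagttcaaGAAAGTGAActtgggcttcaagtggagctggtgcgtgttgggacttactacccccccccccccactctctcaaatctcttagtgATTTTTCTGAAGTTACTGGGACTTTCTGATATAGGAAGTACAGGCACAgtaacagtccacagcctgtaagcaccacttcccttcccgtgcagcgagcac
Ms4a6b: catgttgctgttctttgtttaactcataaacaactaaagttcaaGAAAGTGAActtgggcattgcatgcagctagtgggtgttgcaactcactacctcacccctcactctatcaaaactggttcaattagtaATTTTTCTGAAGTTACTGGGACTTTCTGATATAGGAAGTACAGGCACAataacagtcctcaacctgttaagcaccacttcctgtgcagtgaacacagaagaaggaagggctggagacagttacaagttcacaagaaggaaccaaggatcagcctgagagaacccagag
The run begins at position -49 in Ms4a6c and at -118 in Ms4a6b, counted from the start site, and the aligned windows were identical at 85.3% of 225 base pairs. GAAAGTGAA begins at -133 and -206 in the same order.

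The next pair is shown because similar start regions stood beside very different levels. Ms4a4c (chr19:11407411-11407710, plus strand) and its neighbour Ms4a4b (chr19:11443308-11443607, plus strand), a gene known from T cells, have capitals for a run of 20 bases that both hold.
Ms4a4c: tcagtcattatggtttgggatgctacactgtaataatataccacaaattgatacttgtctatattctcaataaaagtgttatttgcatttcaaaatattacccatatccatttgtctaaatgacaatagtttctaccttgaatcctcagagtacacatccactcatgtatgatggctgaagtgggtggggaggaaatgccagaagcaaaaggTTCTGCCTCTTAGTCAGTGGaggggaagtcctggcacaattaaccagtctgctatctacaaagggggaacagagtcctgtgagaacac
Ms4a4b: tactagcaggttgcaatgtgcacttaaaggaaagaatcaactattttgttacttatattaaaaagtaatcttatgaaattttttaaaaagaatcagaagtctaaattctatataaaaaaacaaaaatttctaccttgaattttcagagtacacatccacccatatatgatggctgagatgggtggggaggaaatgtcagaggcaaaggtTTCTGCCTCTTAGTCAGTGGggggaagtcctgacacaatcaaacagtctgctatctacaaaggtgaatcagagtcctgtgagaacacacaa
These windows were identical at 81.9% of 281 aligned base pairs, yet Ms4a4c averaged between 1039 and 2057 FPKM in the 5 groups and Ms4a4b between 0.69 and 9.43 FPKM. The other 64 of the 66 pairs of Ms4a promoter windows were identical at 56.4% to 69.5% of aligned bases, with shared runs of 6 to 13 bases.

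The third pair are the neighbours Ms4a14 (chr19:11314405-11314704, minus strand) and Ms4a7 (chr19:11336097-11336396, minus strand), the 2 genes whose levels were lowest in LPS+Baf A1 and next lowest in LPS+CLA. Capitals mark matches to the motifs named below, on either strand.
Ms4a14: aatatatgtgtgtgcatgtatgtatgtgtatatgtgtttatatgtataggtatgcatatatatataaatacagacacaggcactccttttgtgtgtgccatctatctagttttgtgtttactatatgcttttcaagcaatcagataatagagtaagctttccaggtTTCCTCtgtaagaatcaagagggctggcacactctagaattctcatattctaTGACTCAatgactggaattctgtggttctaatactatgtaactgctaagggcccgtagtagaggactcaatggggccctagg
Ms4a7: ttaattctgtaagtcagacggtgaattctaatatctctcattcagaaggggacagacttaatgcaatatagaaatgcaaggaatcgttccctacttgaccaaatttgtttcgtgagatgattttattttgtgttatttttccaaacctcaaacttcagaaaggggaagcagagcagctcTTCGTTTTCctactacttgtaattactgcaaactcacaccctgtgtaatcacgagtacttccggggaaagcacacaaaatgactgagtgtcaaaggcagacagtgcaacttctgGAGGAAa
In Ms4a14 the capitals are TTCCTC, the reverse complement of the PU.1-type motif GAGGAA, and TGACTCA, a match to the AP-1-type motif TGANTCA. In Ms4a7 they are TTCGTTTTC, the reverse complement of GAAANNGAA, and GAGGAA; 2 windows are listed for Ms4a7, and the first is printed.

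Motifs were searched on both strands in all 32851 promoter windows of the table. The interferon-response pair, GAAA and GAAA 2 bases apart, held by 3.44% of windows, had no match in the 6 windowed genes, and the shorter form GAAANNGAA, which was added after the sequences were seen and is part of the longer one, was held by 8.56% of windows and by Ms4a6b, Ms4a6c and Ms4a7. GAGGAA was held by 28.3% of windows and by Ms4a4c, Ms4a7 and Ms4a14. TGANTCA was held by 7.81% of windows and by Ms4a14 and the second Ms4a7 window. The NF-kB-type motif, GGGA and CC 4 bases apart (20.7% of windows), had matches in Ms4a4a and Ms4a6c. The E-box CACGTG (7.15%) and the C/EBP-type motif TTGCNNAA (10.8%) had no match in these windows. These are matches of letters only.

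Sequence shared between transcripts bears on how far FPKM can be assigned to a single gene. Of the 75-base stretches of the longest coding transcript of Ms4a6c, 53.4% also lie in BE692007, an annotated RNA on the opposite strand of the same locus that has no line of its own in the expression table. Strandedness is not given in the labels, so reads of Ms4a6c and of this antisense RNA cannot be told apart. The other overlaps were small: 3.94% of Ms4a4c was shared with Ms4a4b, 1.11% of Ms4a6b with its relatives and BE692007, and 0.521% of Ms4a6d with Ms4a6b. Ms4a14, Ms4a7 and Ms4a4a shared no such stretch with another annotated transcript.

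Several of the 7 genes were among the most abundant transcripts of these cells. In LPS libraries Ms4a4c averaged 2057 ± 168 FPKM (SD, n = 3) and held rank 15 of 15725 symbols, and Ms4a6d averaged 1337 ± 182 FPKM at rank 30. Ms4a6c (733 ± 17.0 FPKM, rank 67) and Ms4a7 (696 ± 72.1 FPKM, rank 71) came next, followed by Ms4a6b (458 ± 12.3 FPKM, rank 130) and Ms4a4a (286 ± 37.0 FPKM, rank 233). Ms4a14, the gene with the longest coding transcript of the 7, averaged 55.9 ± 4.01 FPKM at rank 1307. The order among genes differed in the other groups. Ms4a6d stood above Ms4a4c in LPS+CLA (rank 21 against 40), LPS+Baf A1 (29 against 34), LPS+siAtg5 (24 against 29) and LPS+dNC libraries (21 against 44).

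**Figure D1:**
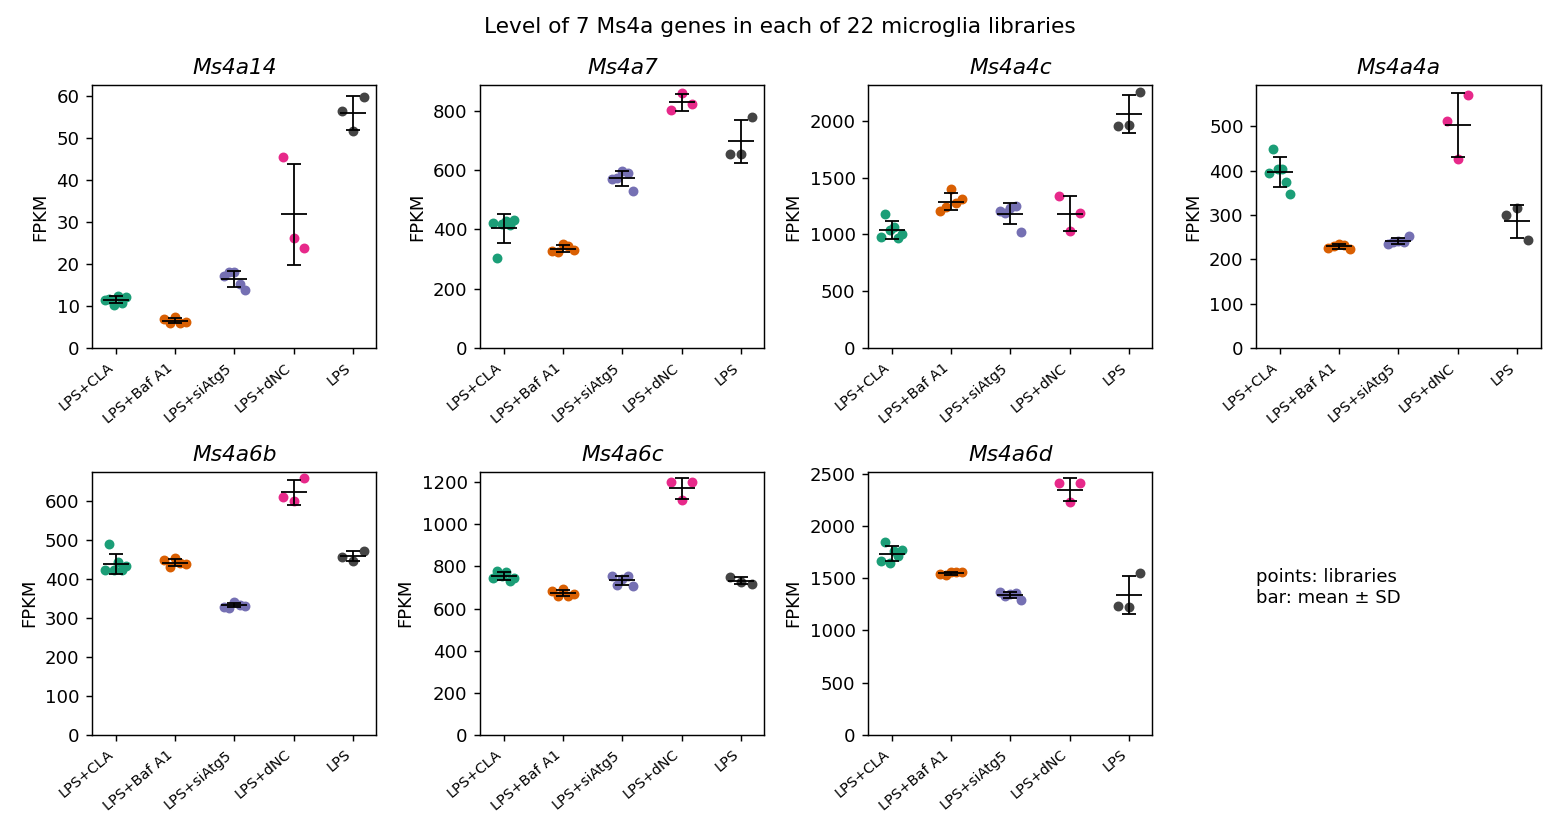
FPKM (vertical axis, linear from 0, own scale per gene) of the 7 Ms4a genes in each library (points) of the 5 groups, with the mean and SD as a bar. Ms4a14 separates all 5 groups, from 5.93 FPKM in an LPS+Baf A1 library to 59.7 FPKM in an LPS library. Ms4a4c is highest in LPS, and Ms4a4a, Ms4a6b, Ms4a6c, Ms4a6d and Ms4a7 have their highest mean in LPS+dNC.

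Bafilomycin A1 against LPS alone was the comparison with the largest difference of any of the 7 genes. Ms4a14, Ms4a7, Ms4a4c, Ms4a4a and Ms4a6c were called lower and Ms4a6d higher with Baf A1, where a call means an adjusted p under 0.05 in a limma fit over all 11070 genes tested, and Ms4a6b was not called. In that fit 57.8% of all genes were called. The median log2 difference of the 7 genes was -0.31, with a range of -2.93 to 0.22, beside a median of 0.04 over all genes tested. In 5 of the 7 genes the libraries of the groups did not overlap, which held for 52.7% of all genes tested. In bulk RNA, fewer cells that express a gene and less of its RNA per cell cannot be told apart.

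CLA against LPS alone gave a mixed picture, with some of the 7 genes higher and others lower. Ms4a14, Ms4a4c and Ms4a7 were called lower with CLA, Ms4a4a and Ms4a6d were called higher, and Ms4a6b and Ms4a6c were not called, while 63.1% of all genes were called. The median log2 difference of the 7 genes was -0.07 (range -2.19 to 0.47), beside 0.09 over all genes, and 5 of the 7 genes did not overlap between the groups, which held for 51.6% of all genes tested. The comparison shares its LPS libraries with the bafilomycin comparison, so the values of both are set side by side below.

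Ms4a14 had 10.25, 11.5 and 12.4 FPKM as its lowest, median and highest value in LPS+CLA libraries, 6.9, 5.98, 7.33, 5.93 and 6.22 FPKM in LPS+Baf A1 libraries, and 56.33, 51.74 and 59.72 FPKM in LPS libraries. All LPS libraries lay above all others, and every LPS+CLA library lay above every LPS+Baf A1 library. The means were 0.205 times the LPS mean with CLA (log2 difference -2.19, SE 0.13) and 0.116 times with Baf A1 (-2.93, SE 0.14). On the rank scale the gene stood at 4872 in LPS+CLA, 6206 in LPS+Baf A1 and 1307 in LPS. Over all alternative settings the difference stayed between -2.34 and -2.15 with CLA and between -3.09 and -2.87 with Baf A1, on the log2 scale.

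Ms4a7, the border macrophage marker, had 304.73, 419.3 and 431.24 FPKM as its lowest, median and highest value in LPS+CLA libraries, 328.36, 322.57, 352.01, 342.02 and 329.81 FPKM in LPS+Baf A1 libraries, and 654.75, 654.71 and 779.6 FPKM in LPS libraries. LPS libraries lay above all libraries of both treatments, which overlapped each other through LPS+CLA replicate 2, the lowest value of all. The log2 difference to LPS was -0.79 (SE 0.08) with CLA and -1.05 (SE 0.08) with Baf A1, and without the 3 libraries that lay apart it was -0.63 and -0.97 in this order.

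Ms4a4c, an interferon-responsive gene in mouse cells, had 971.49, 1023.5 and 1178.13 FPKM as its lowest, median and highest value in LPS+CLA libraries, 1204.03, 1243.22, 1400.03, 1275.74 and 1311.04 FPKM in LPS+Baf A1 libraries, and 1957.85, 1961.29 and 2251.1 FPKM in LPS libraries. Each group was separate from the others, with CLA lowest. The log2 difference to LPS was -0.98 (SE 0.08) with CLA and -0.67 (SE 0.08) with Baf A1.

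Ms4a4a, the partner of dectin-1, had 347.94, 399.2 and 449.62 FPKM as its lowest, median and highest value in LPS+CLA libraries, 225.47, 230.57, 235.38, 233.38 and 222.19 FPKM in LPS+Baf A1 libraries, and 299.03, 314.67 and 244.3 FPKM in LPS libraries. The LPS libraries lay between the treatments without overlap, above Baf A1 and below CLA. The log2 difference to LPS was 0.47 (SE 0.08) with CLA and -0.31 (SE 0.08) with Baf A1, and without the 3 libraries that lay apart it was 0.33 and -0.42.

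The Ms4a6 genes differed less. Ms4a6d had 1648.8, 1736 and 1843.58 FPKM as its lowest, median and highest value in LPS+CLA libraries, 1537.34, 1527.39, 1559.49, 1563.64 and 1557.71 FPKM in LPS+Baf A1 libraries, and 1237.36, 1226.67 and 1547.74 FPKM in LPS libraries. LPS replicate 3 reached the range of LPS+Baf A1, and all LPS+CLA libraries lay above both other groups. The log2 difference to LPS was 0.38 (SE 0.06) with CLA, and it was 0.22 (SE 0.06) with Baf A1, or 0.33 without the 3 libraries that lay apart. The Baf A1 call was lost under median-of-ratios scaling (0.16) and the difference turned to -0.000407 under quantile normalization.

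Ms4a6c, known from monocytes, had 730.7, 751 and 779.51 FPKM as its lowest, median and highest value in LPS+CLA libraries, 682.54, 657.5, 692.79, 661.94 and 668.25 FPKM in LPS+Baf A1 libraries, and 751.79, 728.07 and 718.81 FPKM in LPS libraries. The LPS+Baf A1 libraries lay below both other groups, which overlapped. The log2 difference to LPS was 0.04 (SE 0.04) with CLA, not called and -0.11 under median-of-ratios scaling, and -0.12 (SE 0.04) with Baf A1, a call that was lost under scaling to pan-macrophage genes (-0.06).

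Ms4a6b had 421.04, 426.8 and 487.79 FPKM as its lowest, median and highest value in LPS+CLA libraries, 447.09, 430.29, 452.42, 439.05 and 437.03 FPKM in LPS+Baf A1 libraries, and 456.1, 446.28 and 470.81 FPKM in LPS libraries. All 3 groups overlapped. The log2 difference to LPS was -0.07 with CLA (SE 0.04) and -0.05 with Baf A1 (SE 0.05), and neither was called. Without LPS+CLA replicate 2, the highest library, the difference with CLA was -0.10 and was called. It was also called with quantile normalization (-0.15) and median-of-ratios scaling (-0.22), and with Baf A1 under quantile normalization (-0.16).

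**Figure D2:**
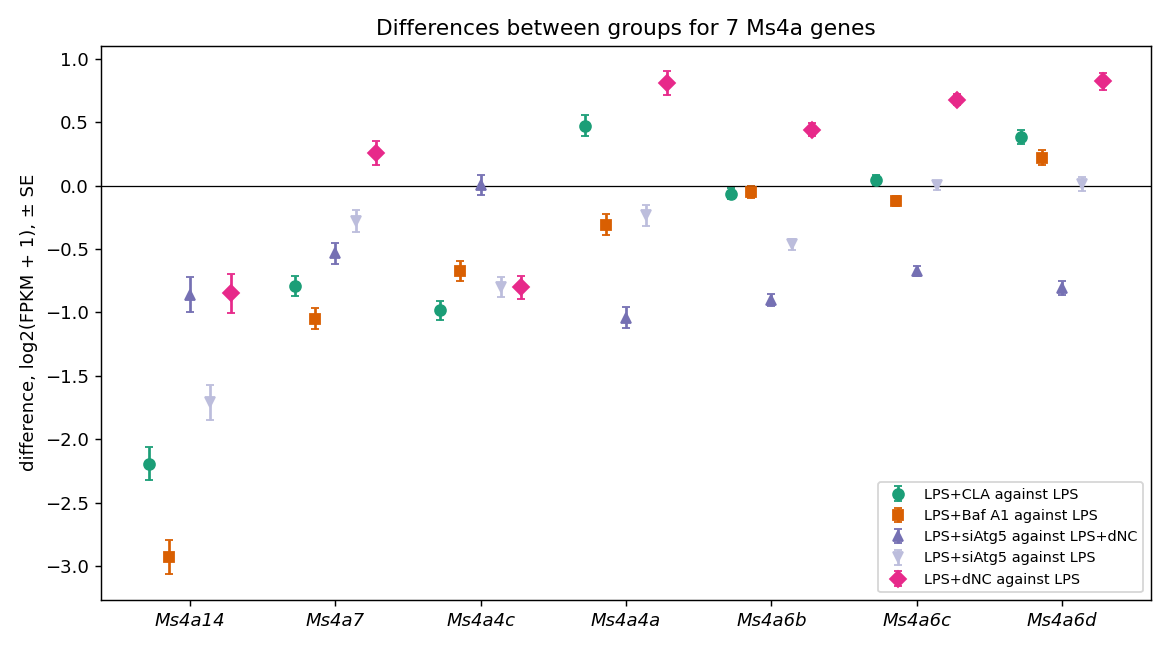
Differences between group means of log2(FPKM + 1), with their SE, for the 7 Ms4a genes (horizontal axis) in 5 comparisons; a value above 0 means higher in the group named before "against". Ms4a14 lies at -2.93 for LPS+Baf A1 against LPS and -2.19 for LPS+CLA against LPS, and 6 of the 7 genes lie below 0 for LPS+siAtg5 against LPS+dNC.

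Set directly against Baf A1, CLA left Ms4a4a, Ms4a14, Ms4a7, Ms4a6c and Ms4a6d at higher levels and Ms4a4c at a lower level, and Ms4a6b was not called; 54.3% of all genes were called in this comparison. The largest differences of LPS+CLA minus LPS+Baf A1 were 0.78 for Ms4a4a and 0.74 for Ms4a14 on the log2 scale. Ms4a4a averaged 396 ± 33.9 FPKM in LPS+CLA and 229 ± 5.49 FPKM in LPS+Baf A1 libraries, with no overlap. Ms4a14 averaged 11.5 ± 0.82 FPKM in LPS+CLA and 6.47 ± 0.62 FPKM in LPS+Baf A1 libraries, also without overlap. For Ms4a4c the difference was -0.31. The calls of Ms4a6c (0.17) and Ms4a6d (0.16) were lost under median-of-ratios scaling (0.08 and 0.07) and under scaling to pan-macrophage genes (0.07 for each).

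Knockdown of Atg5 against dNC left 6 of the 7 genes lower. All but Ms4a4c were called lower in LPS+siAtg5 than in LPS+dNC libraries, none was called higher, and 81.2% of all genes were called. The median log2 difference of the 7 genes was -0.81 (range -1.04 to 0.003), while the median over all genes was 0.34 as deposited and -0.06 to 0.08 under the 3 other scalings. Relative to the as-deposited median, the 7 genes lay at -0.34 (Ms4a4c) to -1.38 (Ms4a4a). The direction of the 6 genes was the same under every scaling, but under quantile normalization the differences shrank to -0.06 for Ms4a7, where the call was lost, -0.14 for Ms4a6d and -0.20 for Ms4a6c.

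Ms4a4a had 235.66, 240.01, 241.59, 238.26 and 252.82 FPKM in LPS+siAtg5 libraries, against 511.93, 425.54 and 570.57 FPKM in LPS+dNC libraries. Its groups were far apart, with a log2 difference of -1.04 (SE 0.08). Ms4a6b had 327.85, 325.54, 339.47, 333.64 and 331.13 FPKM in LPS+siAtg5 libraries, against 608.5, 597.75 and 657.45 FPKM in LPS+dNC libraries, also without overlap (log2 difference -0.90, SE 0.05).

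Ms4a6d had 1370.84, 1325.53, 1349.92, 1362.87 and 1294.53 FPKM in LPS+siAtg5 libraries, against 2411.15, 2227.87 and 2412.81 FPKM in LPS+dNC libraries. The highest knockdown library lay well below the lowest control library, and the log2 difference was -0.81 (SE 0.06). Ms4a6c had 752.81, 709.72, 742.41, 754.82 and 708.55 FPKM in LPS+siAtg5 libraries, against 1201.59, 1115.57 and 1201.57 FPKM in LPS+dNC libraries. These groups did not overlap either (log2 difference -0.68, SE 0.04).

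Ms4a14 had 17.11, 18.02, 18.1, 15.15 and 13.9 FPKM in LPS+siAtg5 libraries, against 45.58, 26.08 and 23.84 FPKM in LPS+dNC libraries. LPS+dNC replicate 1 stood well above the other controls, and without it the log2 difference was -0.58 in place of -0.86 (SE 0.14), the same as without all 3 libraries that lay apart; under scaling to pan-macrophage genes it was -1.32. Ms4a7 had 570.79, 573.41, 596.06, 588.02 and 529.91 FPKM in LPS+siAtg5 libraries, against 802.84, 858.52 and 823.18 FPKM in LPS+dNC libraries. The groups were separate, with a log2 difference of -0.53 (SE 0.08).

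Among all genes tested, 77% did not overlap in LPS+siAtg5 against LPS+dNC. Of the Ms4a genes followed here, Ms4a4c alone overlapped between knockdown and control. It had 1209.45, 1190.16, 1230.72, 1253.63 and 1020.55 FPKM in LPS+siAtg5 libraries, against 1334.73, 1027.36 and 1183.94 FPKM in LPS+dNC libraries. Its log2 difference was 0.003 (SE 0.08) and was not called as deposited; it was -0.30 under median-of-ratios scaling and -0.47 under scaling to pan-macrophage genes, called lower in both, and 0.50 and called higher under quantile normalization.

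LPS+dNC and LPS libraries differed from each other in all 7 genes. LPS+dNC against LPS alone called Ms4a4a, Ms4a6b, Ms4a6c, Ms4a6d and Ms4a7 higher and Ms4a4c and Ms4a14 lower, with no overlap in any of the 7 genes; 57.2% of all genes were called, and 53.6% did not overlap. Ms4a6d averaged 2351 ± 106 FPKM in LPS+dNC and 1337 ± 182 FPKM in LPS libraries (log2 difference 0.82). Ms4a4a lay 0.81 higher, Ms4a6c 0.68 and Ms4a6b 0.44 higher on the log2 scale in LPS+dNC. Ms4a14 averaged 31.8 ± 11.96 FPKM in LPS+dNC and 55.9 ± 4.01 FPKM in LPS libraries (-0.85), and Ms4a4c 1182 ± 154 and 2057 ± 168 FPKM in the same order (-0.80). Without the 3 libraries that lay apart Ms4a14 stood at -1.08, Ms4a4a at 0.68 and Ms4a7 at 0.36. Under the 3 other scalings the directions stayed, with Ms4a6d between 0.32 and 1.21; scaling to pan-macrophage genes, which gave the highest value, also moved the median of all genes to 0.30. The Ms4a7 call (0.25) was lost under quantile normalization (0.02), in a fit of the 2 groups alone, and without LPS replicate 1 (0.21), LPS replicate 2 (0.21) or LPS+dNC replicate 2 (0.23).

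LPS+siAtg5 was also set against LPS alone. Ms4a14, Ms4a4c, Ms4a6b, Ms4a7 and Ms4a4a were called lower and none higher, and 76.8% of all genes were called. Ms4a14 lay at -1.71 and Ms4a4c at -0.80 on the log2 scale, while Ms4a6c (0.001) and Ms4a6d (0.01) were not called as deposited and turned to -0.33 and -0.32 under median-of-ratios scaling, and to 0.19 and 0.18 under quantile normalization. The median over all genes was 0.31 here. The Ms4a4a call (-0.23) was lost without LPS replicate 1 (-0.20) or replicate 2 (-0.16) and stood at -0.34 without the 3 libraries that lay apart, the Ms4a7 call (-0.28) was lost without LPS replicate 3 (-0.20) and under quantile normalization (-0.03), and Ms4a6d was called higher without that library (0.12).

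Marker genes of other cells moved with the knockdown comparison. All 14 astrocyte genes tested rose in LPS+siAtg5 against LPS+dNC (median log2 difference 3.19). Aqp4, the water channel of astrocytes, averaged 53.4 ± 2.06 FPKM in knockdown libraries and 0.34 ± 0.26 FPKM in LPS+dNC libraries. All 8 neuronal genes tested and 6 of 7 oligodendrocyte genes tested also rose. Some of these genes, among them Aqp4 and the neuronal gene Syt1, passed the filter on low values only through LPS+siAtg5 libraries. For such genes a rise was fixed in advance, so the counts are a description and Aqp4 has no p-value. Of 20 pan-macrophage genes 13 rose and 6 fell (median 0.32), beside 59.6% and 21.6% of all genes tested (median 0.34). Cx3cr1 averaged 13.9 ± 0.77 FPKM with siAtg5 and 0.18 ± 0.08 FPKM in LPS+dNC libraries (limma adjusted p = 2.01e-17). The part of these markers in the Ms4a differences was not tested.

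The order of the 5 groups differed from gene to gene. Ms4a14 ran in the order LPS, LPS+dNC, LPS+siAtg5, LPS+CLA and LPS+Baf A1 from high to low, with no overlap between neighbours and an 8.64-fold span of means. Ms4a7 ran LPS+dNC, LPS, LPS+siAtg5, LPS+CLA and LPS+Baf A1, and here only the last neighbours overlapped. Ms4a4c was highest in LPS, clear of LPS+Baf A1, LPS+dNC, LPS+siAtg5 and LPS+CLA, each of which overlapped the next. Ms4a4a ran LPS+dNC, LPS+CLA, LPS, LPS+siAtg5 and LPS+Baf A1, with overlaps of LPS+dNC with LPS+CLA and of LPS with LPS+siAtg5. Ms4a6b, Ms4a6c and Ms4a6d had LPS+dNC on top without overlap, and their lowest groups were LPS+siAtg5, LPS+Baf A1 and LPS in this order.

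Summed over the 7 genes the level was 4776 ± 165 FPKM in LPS+CLA, 4521 ± 113 in LPS+Baf A1, 4417 ± 161 in LPS+siAtg5, 6689 ± 356 in LPS+dNC and 5623 ± 389 FPKM in LPS libraries. Its make-up differed between groups mainly in Ms4a4c and Ms4a6d. Ms4a4c gave 21.8% of it in LPS+CLA, 28.5% in LPS+Baf A1, 26.7% in LPS+siAtg5, 17.7% in LPS+dNC and 36.6% in LPS libraries. Ms4a6d gave 36.3% in LPS+CLA, 34.3% in LPS+Baf A1, 30.4% in LPS+siAtg5, 35.1% in LPS+dNC and 23.8% in LPS libraries. The shares of Ms4a6b (7.51% to 9.76%) and Ms4a6c (13% to 17.5%) varied less over the groups. Ms4a14 gave 0.24% in LPS+CLA, 0.143% in LPS+Baf A1, 0.373% in LPS+siAtg5, 0.476% in LPS+dNC and 0.995% in LPS libraries, as shares of the mean sums.

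**Figure D3:**
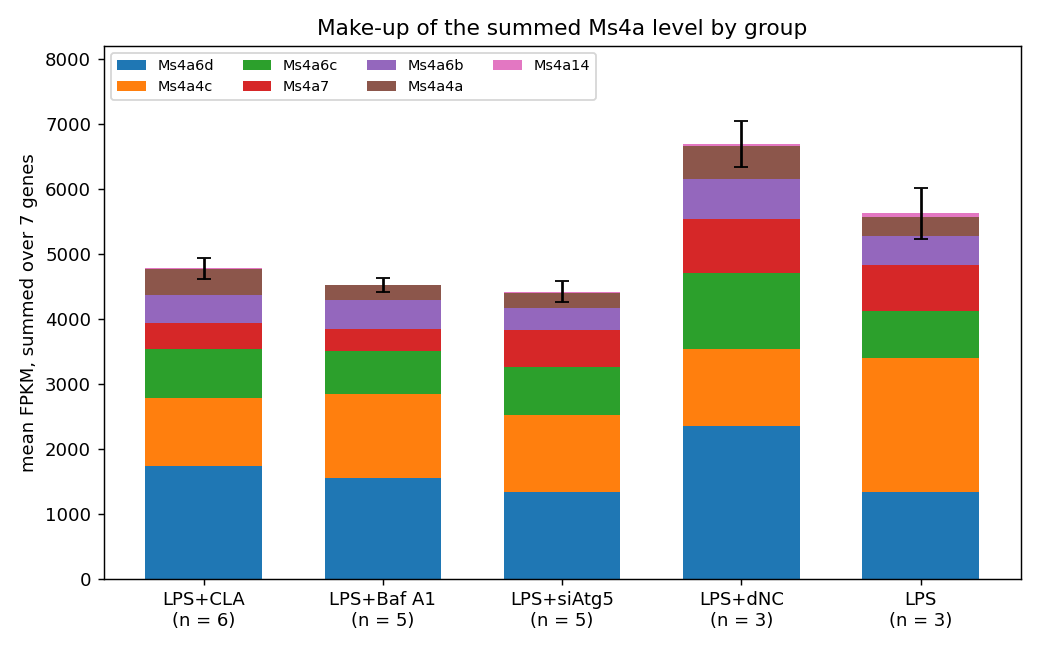
Mean FPKM of the 7 Ms4a genes stacked by group (vertical axis from 0), with the SD of the summed level over libraries. The Ms4a4c block is 36.6% of the bar in LPS and 17.7% to 28.5% in the other groups, and the Ms4a6d block is 23.8% in LPS and 30.4% to 36.3% elsewhere.

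Of the 7 other Ms4a genes in the table, 5 stayed below 1 FPKM in every library and were not tested. These were Ms4a1 (CD20, at most 0.26 FPKM), Ms4a2 (at most 0.02 FPKM), Ms4a4d (at most 0.79 FPKM), Ms4a12 (at most 0.43 FPKM) and Ms4a18 (at most 0.19 FPKM). Ms4a4b had 1.07, 0.54, 0.67, 0.55 and 0.64 FPKM in LPS+siAtg5 libraries, against 9.98, 8.9 and 9.4 FPKM in LPS+dNC libraries. Only the LPS+dNC libraries stood out, and Ms4a4b fell with the knockdown by 2.63 on the log2 scale (limma adjusted p = 1.07e-12); it was also 2.14 higher in LPS+dNC than in LPS libraries (adjusted p = 9.17e-10). With Baf A1 it averaged 0.73 ± 0.27 FPKM, against 1.41 ± 0.58 FPKM in LPS libraries (log2 difference -0.46, adjusted p = 0.0184), a call that was lost without LPS replicate 2 (-0.27). Ms4a8a, described in alternatively activated mouse macrophages, averaged 0.06 ± 0.06 FPKM in LPS+siAtg5, 1.95 ± 0.85 FPKM in LPS+dNC and 0.09 ± 0.06 FPKM in LPS libraries. It reached 1 FPKM in LPS+dNC libraries alone and passed the filter only through them, so its differences to that group are given without p-values.

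Tmem176a and Tmem176b, relatives of the family that lie elsewhere in the genome, rose with CLA. Tmem176a had 91.24 to 109.23 FPKM in LPS+CLA libraries, against 38.46, 31.92 and 42.99 FPKM in LPS libraries. Tmem176b had 272.77 to 322.79 FPKM in LPS+CLA libraries, against 130.77, 117.96 and 127.07 FPKM in LPS libraries. Neither gene overlapped between the groups, and the log2 differences were 1.36 and 1.21 (limma adjusted p = 1.16e-07 and 2.66e-09). With Baf A1 the differences were 0.33 and 0.15 (adjusted p = 0.084 and 0.285). In LPS+siAtg5 against LPS+dNC both were higher, by 0.68 and 1.23 (adjusted p = 0.000587 and 1.39e-09), the opposite direction to the 6 Ms4a genes called there. Against LPS alone neither was called in LPS+siAtg5 as deposited (-0.20 and -0.23), and both were lower in LPS+dNC (-0.88 and -1.46). The Tmem176a call in LPS+siAtg5 against LPS+dNC was lost under median-of-ratios scaling (0.38) and scaling to pan-macrophage genes (0.22), and the difference was 0.39 without LPS+dNC replicate 3.

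Genes beside the cluster did not follow one direction. Of 17 genes, 8 on each side plus Gm8369, 11 were in the table and 8 were tested. With Baf A1 3 rose and 2 fell, with CLA 3 rose and 5 fell, and with the knockdown against dNC 5 rose and 3 fell. Over all genes tested 32.7% rose and 25.1% fell with Baf A1, and 40.4% and 22.6% with CLA. In LPS+siAtg5 against LPS+dNC the shares were 59.6% and 21.6%. The same shares stand beside the counts of the gene lists below. Stx3, a membrane fusion protein, fell with CLA to 3.79 ± 0.61 FPKM, against 15.3 ± 0.86 FPKM in LPS libraries (log2 difference -1.78, limma adjusted p = 2.17e-12). Slc15a3, an endosomal peptide transporter, averaged 415 ± 13.6 FPKM with siAtg5 and 903 ± 67.2 FPKM in LPS+dNC libraries (-1.12, adjusted p = 1.44e-14), and 608 ± 64.9 FPKM in LPS libraries. Prpf19, a splicing factor gene, went the other way, at 33.9 ± 1.37 FPKM with siAtg5 and 7.21 ± 0.66 FPKM in LPS+dNC libraries (2.09, adjusted p = 1.7e-19). It averaged 26.1 ± 1.18 FPKM in LPS libraries, and its difference to LPS was -1.72 in LPS+dNC and 0.37 in LPS+siAtg5. Gm8369, which lies between Ms4a6c and Ms4a6b, was at 1.77 ± 0.34 FPKM with siAtg5 and 4.49 ± 0.69 FPKM in LPS+dNC libraries (-0.99, adjusted p = 7.79e-08), and at 1.42 ± 0.39 FPKM in LPS libraries.

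**Figure D4:**
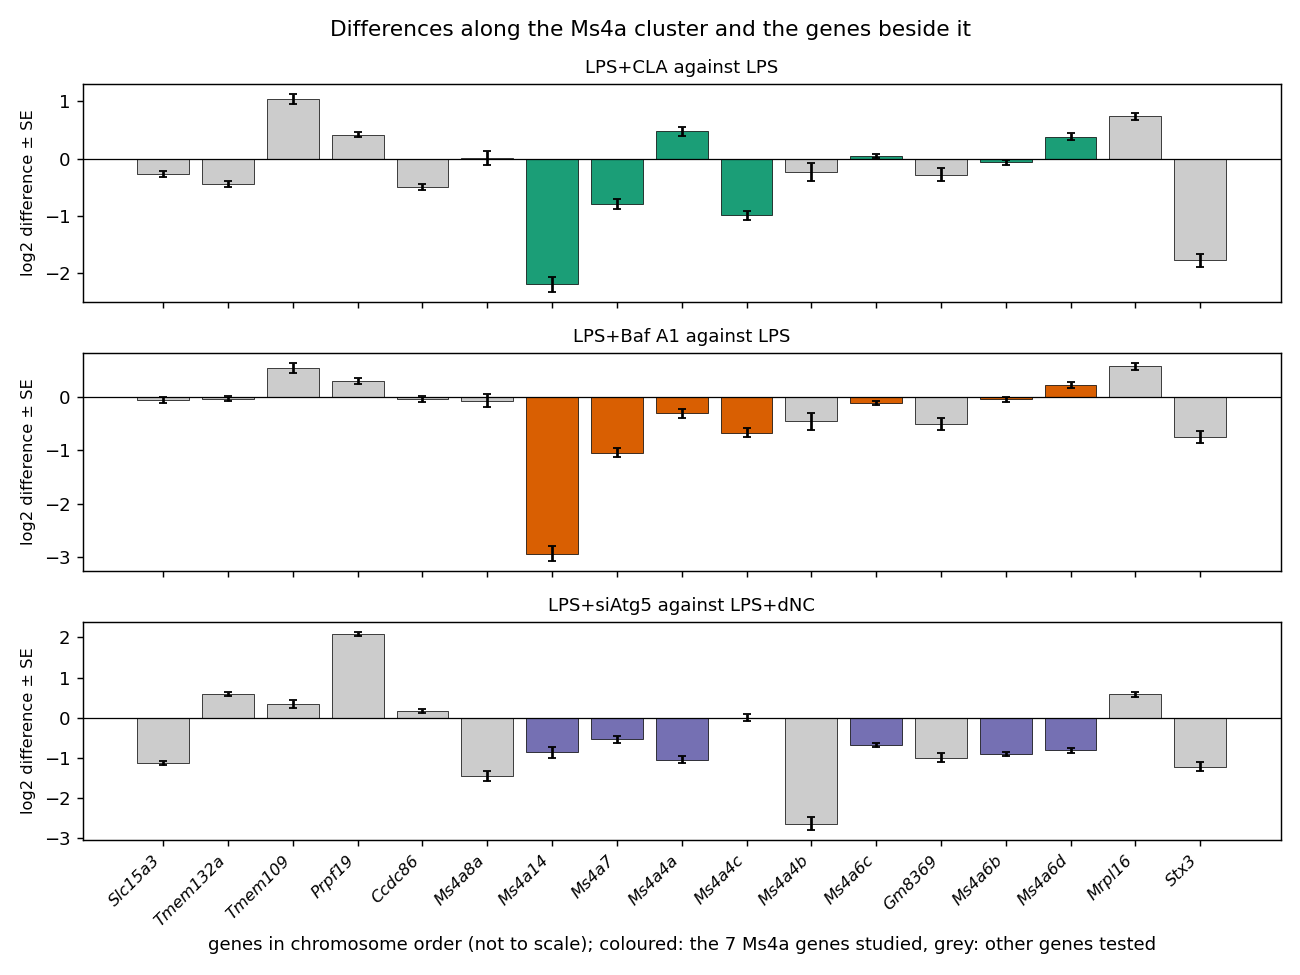
Differences of log2(FPKM + 1) with their SE for the tested Ms4a genes and the tested genes beside them, in chromosome order and not to scale, for LPS+CLA against LPS, LPS+Baf A1 against LPS and LPS+siAtg5 against LPS+dNC. Coloured bars are the 7 Ms4a genes and grey bars other genes. In the bottom panel 6 of the 7 coloured bars lie below 0 while Prpf19 lies at 2.09, and in the top panel Ms4a14 (-2.19) and Stx3 (-1.78) are the lowest.

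Among partners of MS4A proteins and genes of TREM2 shedding, 13 were tested. With CLA 8 rose and 1 fell, with Baf A1 6 rose and 1 fell, and with the knockdown against dNC 8 rose and 3 fell. Of all genes tested 40.4% rose and 22.6% fell with CLA, and 32.7% and 25.1% with Baf A1. In LPS+siAtg5 against LPS+dNC these shares were 59.6% and 21.6%, close to those of the 13 genes. The gene that fell with CLA was Trem2, a lipid-sensing receptor of microglia, at 4.83 ± 0.51 FPKM in LPS+CLA and 18.5 ± 2.37 FPKM in LPS libraries (log2 difference -1.74, limma adjusted p = 3.4e-12), while Ms4a4a lay higher. In LPS+siAtg5 libraries Trem2 averaged 33.4 ± 2.06 FPKM, against 14.5 ± 3.89 FPKM in LPS+dNC libraries (1.18, adjusted p = 1.73e-09), while Ms4a4a lay lower. With Baf A1, where Trem2 was the gene that fell, it averaged 15.2 ± 1.31 FPKM, against 18.5 ± 2.37 FPKM in LPS libraries (-0.26, adjusted p = 0.0487), and Ms4a4a lay lower too. Adam17, a protease that sheds TREM2, averaged 69.7 ± 1.28 FPKM with siAtg5 and 47.8 ± 2.2 FPKM in LPS+dNC libraries (0.54, adjusted p = 1.48e-09). In LPS libraries Adam17 averaged 74.1 ± 8.10 FPKM. Fcer1g, the Fc receptor gamma chain, averaged 2109 ± 52.0 FPKM with siAtg5 and 5103 ± 437 FPKM in LPS+dNC libraries (-1.27, adjusted p = 1.52e-14). In LPS libraries Fcer1g averaged 2334 ± 284 FPKM. The tetraspanin gene Cd81 rose with CLA, Baf A1 and the knockdown, to 31.9 ± 6.57, 36.5 ± 2.38 and 67.4 ± 2.68 FPKM, against 10.7 ± 0.75 FPKM in LPS and 11.6 ± 2.61 FPKM in LPS+dNC libraries (adjusted p = 1.33e-08, 4.07e-09 and 1.71e-12). For Clec7a the difference was -0.46 with CLA (adjusted p = 0.118) and 0.59 with Baf A1 (adjusted p = 0.0574). Clec7a averaged 13.3 ± 0.60 FPKM with siAtg5 and 4.2 ± 2.61 FPKM in LPS+dNC libraries (1.58, adjusted p = 1.22e-05), and 16.7 ± 0.97 FPKM in LPS libraries.

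Interferon-stimulated genes are set beside Ms4a4c because that gene responds to interferon in mouse cells. Of 25 tested, 24 fell with CLA (median log2 difference -1.19), 23 fell with Baf A1 (-0.62) and 23 fell with the knockdown against dNC (-1.04). Bst2 rose with CLA and Baf A1. Ms4a4c itself lay at -0.98 with CLA and -0.67 with Baf A1. With the knockdown against dNC it lay at 0.003 as deposited and was not called. Ifit2 averaged 101 ± 8.72 FPKM in LPS+CLA, 267 ± 19.2 FPKM in LPS+Baf A1 and 920.5 ± 40.5 FPKM in LPS libraries (limma adjusted p = 3.64e-18 and 1.62e-13 against LPS). Rsad2 averaged 250.4 ± 26.3 FPKM with siAtg5 and 1705 ± 258 FPKM in LPS+dNC libraries (-2.76, adjusted p = 5.06e-17). Against LPS alone, LPS+dNC had 11 of these genes higher and 7 lower (median -0.02), beside 29% and 28.1% of all genes tested. Ms4a4c lay at -0.80 there.

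Transcription factors and cytokine receptors of macrophages split in both directions. Of 22 tested, 6 rose and 7 fell with CLA, 8 rose and 7 fell with Baf A1, and 7 rose and 13 fell with the knockdown against dNC. Irf1 fell with CLA and Baf A1 to 43.1 ± 3.74 and 69.8 ± 3.66 FPKM, against 194 ± 13.9 FPKM in LPS libraries (limma adjusted p = 1.75e-17 and 6.67e-14). Il4ra, a chain of the interleukin-4 receptor, averaged 67.7 ± 2.54 FPKM with siAtg5 and 178 ± 9.91 FPKM in LPS+dNC libraries (adjusted p = 1.05e-13), and 95.5 ± 6.14 FPKM in LPS libraries.

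Border macrophage genes, the cells that Ms4a7 marks in the healthy brain, stayed mixed. Of 8 tested, 4 rose and 2 fell with CLA, 2 rose and 2 fell with Baf A1, and 3 rose and 4 fell with the knockdown against dNC. Mrc1, the mannose receptor, averaged 4.86 ± 1.37 FPKM in LPS+CLA, 5.1 ± 0.20 FPKM in LPS+Baf A1 and 12.4 ± 3.21 FPKM in LPS libraries (limma adjusted p = 1.46e-05 and 7.75e-05). Folr2 averaged 45.8 ± 9.03 FPKM in LPS+CLA, 13.7 ± 1.55 FPKM in LPS+Baf A1 and 9.88 ± 1.80 FPKM in LPS libraries (adjusted p = 4.04e-10 and 0.0335). Summed over 11 genes the list ranged from 312.5 to 466.1 FPKM in LPS+CLA, 328.9 to 379.8 in LPS+Baf A1, 122.9 to 141.1 in LPS+siAtg5, 84.7 to 152.7 in LPS+dNC and 243.9 to 287 FPKM in LPS libraries, and its part in the Ms4a7 differences was not tested.

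The remaining marker lists were small beside the macrophage genes. With CLA and Baf A1 against LPS, homeostatic microglia genes (11 tested) had 2 and 5 higher and 6 and 3 lower, monocyte genes (8 tested) had 0 and 2 higher and 5 and 3 lower, and fibroblast, mural and endothelial genes (9 tested) had 5 and 4 higher and 1 and 1 lower. With the knockdown against dNC these lists had 7, 3 and 6 genes higher and 2, 3 and 2 lower in the same order. Monocyte-defining Ly6c2 averaged 0.09 FPKM in LPS+CLA and 1.21 FPKM in LPS libraries, and Chil3 was at 0 in every LPS+CLA, LPS+Baf A1, LPS+siAtg5 and LPS library. Of 15 genes of B cells, mast cells and neutrophils, the cells known for Ms4a1, Ms4a2 and Ms4a3, 5 were in the table and 2 were tested, and in LPS+siAtg5 against LPS+dNC 1 of them rose and 1 fell.

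For each of the 7 genes, the 3 genes most like it over the 22 libraries were found by Pearson's r of log2(FPKM + 1) among 8020 genes. Libraries fall into 5 groups, so r mostly reflects group means, and it is given as a description. Closest to Ms4a14 were Clk1 (r = 0.97), a kinase of splicing factors, Fem1c (0.97) and Rsrp1 (0.96); Rsrp1 averaged 43.9 FPKM in LPS+CLA, 27.9 in LPS+Baf A1, 61.8 in LPS+siAtg5, 132.5 in LPS+dNC and 147 FPKM in LPS libraries. Closest to Ms4a7 were 3 zinc finger genes, Zfp992 (0.98), Zfp984 (0.97) and Zfp991 (0.97). Ms4a4c was closest to Dck (0.96), Plekho2 (0.94) and Evi2a (0.93), and Ms4a4a to Plagl2 (0.95), Dusp2 (0.94) and Il4ra (0.93). Ms4a6b was closest to Sppl2a (0.98), Scimp (0.97) and Tnfsf9 (0.96). Ms4a6c was closest to Sugt1 (0.98), Ppp2ca (0.98) and Spaca6 (0.97), and Ms4a6d to Pold4 (0.97), Srgn (0.97) and Fhl3 (0.96); all of these were highest in LPS+dNC, and Srgn averaged 1662 FPKM there and 211 FPKM in LPS libraries.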

How the data were processed

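RNA of 22 libraries in 5 groups was read from 1 table of FPKM values per gene symbol, which the authors deposited with the unit in the file headers, and which holds the same values as the file of each library. For LPS+dNC (3 libraries) the header lacks the unit, and FPKM was assumed because range and sums resemble the rest. Per the submitters' processing notes, CASAVA 1.7, fastp 0.18.0, Bowtie2 2.2.8, HISAT2 and StringTie 1.3.1 were used; the sources used here state no genome build, annotation or strandedness. Libraries were grouped by their titles. The table held 15726 lines for 15725 symbols, and the first line of the single repeated symbol was used. No counts were used here, so depth is unknown and no counting interval is given.

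The deposited FPKM were analysed as log2(FPKM + 1), a scale that understates differences of low genes. The 11070 genes that reached 1 FPKM in 3 or more libraries were fitted with limma 3.58.1 in R 4.3.3 (5 group means, 17 residual degrees of freedom, with the robust and trend settings), with Benjamini-Hochberg adjustment over all of them and calls at an adjusted p under 0.05. The fit was tested on simulated data. Alternatives were a pseudocount of 0.1, no filter or 5 FPKM, 3 other scalings, a fit of the 2 groups alone, leaving out libraries and a replicate block. Promoter windows came from RefSeq (GRCm38.p6) and gene positions from GENCODE (GRCm38).

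The 7 genes and all lists were chosen with earlier results of these data known, including the libraries named as lying apart. Named genes were the 7 genes, the other Ms4a genes with Tmem176a and Tmem176b, genes beside the cluster, the 3 most alike genes per member and, of each list, up to 3 per direction with the smallest adjusted p; Csf1r, Clec7a, Chil3 and Siglech were named in addition after their values were seen. Some genes of the lists are counted but not reported here by name.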

Additional observations from a re-analysis of the deposited data

Results flagged for a closer look

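In 33 sets of values (11 genes in the 3 groups of 5 or 6 libraries), 5 had a highest or lowest library far from the others by Dixon's test at the 95% level; chance alone gives about 1 in 20 such sets. LPS+CLA replicate 2 was set apart in Ms4a7 (304.73 FPKM, the lowest of its group) and in Ms4a6b (487.79 FPKM, the highest). LPS+siAtg5 replicate 5 held the lowest Ms4a4c value of its group, 1020.55 FPKM. Ms4a4b stood out at 1.2 FPKM in LPS+Baf A1 replicate 2 and at 1.07 FPKM in LPS+siAtg5 replicate 1, both close to the filter on low values. The groups of 3, LPS+dNC and LPS, were not examined in this way.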

How the results depend on the processing

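The number of the 7 genes called stayed within 1.5 times of its value under every alternative run: 5 to 6 for LPS+CLA against LPS, 5 to 6 for LPS+Baf A1 against LPS, 6 to 7 for LPS+siAtg5 against LPS+dNC, 4 to 6 for LPS+CLA against LPS+Baf A1, 4 to 7 for LPS+siAtg5 against LPS and 6 to 7 for LPS+dNC against LPS. Of 728 alternative values for single genes of the 7, 698 kept their side of the threshold and, where called, their direction, 16 lost a call, 9 gained one and 5 turned with a call in at least 1 of the settings. A further 18 of the 698 changed sign near 0 (0.11 at most) without a call in either setting. The 5 that turned were Ms4a6d in LPS+Baf A1 against LPS under quantile normalization (-0.000407), Ms4a4c in LPS+siAtg5 against LPS+dNC under median-of-ratios scaling (-0.30) and scaling to pan-macrophage genes (-0.47), and Ms4a6c (-0.33) and Ms4a6d (-0.32) in LPS+siAtg5 against LPS under median-of-ratios scaling; the cause was not tested. Of 1248 alternative counts for the gene lists, 52 moved by more than 1.5 times, mostly in lists with few genes tested.

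Scaling moved the share of all calls that were higher. As deposited it was 64.12% for LPS+CLA against LPS, 73.36% for LPS+siAtg5 against LPS+dNC, 65.06% for LPS+CLA against LPS+Baf A1, 79.71% for LPS+siAtg5 against LPS and 50.78% for LPS+dNC against LPS. Under median-of-ratios scaling it was 48.43%, 55.08%, 50.57%, 52.73% and 47.67% in this order, under quantile normalization 54.01%, 49.09%, 54.5%, 47.43% and 47.66%, and under scaling to pan-macrophage genes 62.51%, 45%, 49.53%, 74.57% and 83.1%.

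Replicate numbers showed no clear pairing of the samples: of 36 pairs of same-numbered libraries 3 had a correlation of their deviations above 0.1 (range -0.21 to 0.20). With so few libraries per group, such correlations cannot exclude a pairing. With the replicate number as a block, 5 of the 7 genes were called for LPS+CLA against LPS, 6 for LPS+Baf A1 against LPS and 6 for LPS+siAtg5 against LPS+dNC, the counts found without it, and Ms4a4b in LPS+Baf A1 against LPS (-0.41) lost its call. FPKM without read counts set no limit on how small a difference could be seen, and groups of 3 libraries made calls that 1 library could end.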
